A study of Mus musculus with 12 samples.

Results

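Solute carriers are the membrane proteins that move amino acids, sugars, nucleosides, metals, ions and organic acids across the plasma membrane and the membranes of organelles, and their gene symbols carry a family number (Slc2 for hexoses, Slc7 for amino acids, Slc25 for mitochondrial carriers). The genes described here were chosen by symbol and by abundance. Of 32227 genes in the count table, 308 had a symbol that began with Slc, a family number, the letter a and a member number. Slc18a2 and Slc6a9 were left out by name, 125 had fewer than 100 counts summed over the 12 libraries, and 181 remained. Because the limit used the summed counts, the levels below describe the members and are not tested as such. The limit did not use any difference between groups, but the choice of these genes, and of the 2 left out, was made with earlier results of these data known. Just outside the limit lay Slc9a3r2 with 96 counts, Slc1a3 with 98 and Slc26a10 with 99, and just inside it Slc22a8 with 100 counts, Slc6a18 with 101 and Slc9a5 with 101. In 9 members the symbol goes on after the number. Slc6a20b is a carrier, whereas Slc2a4rg-ps, Slc4a1ap, Slc7a6os, Slc9a3r1, Slc25a5-ps, Slc36a1os, Slc36a3os and Slc39a1-ps are adaptors, opposite-strand transcripts or pseudogenes and were counted apart from the carrier classes.

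The RNA came from basophil-lineage cells that were sorted from wild-type C57BL/6J mice and lysed without stimulation, in 4 groups of 3 libraries. Basophil progenitors (BaPs) were sorted as CD34+ cells, pre-basophils were CD34- CLEC12A-high CD9-low cells, and mature basophils were CLEC12A-low CD9-high cells. The first and second groups and 1 group of mature cells came from the bone marrow (BM), and the other mature group came from the spleen. The study gates basophils as CD200R3+ cKit- cells, gives no CLEC12A or CD9 gate for the sorted BaPs, and the labels give no age. Each library pooled cells of several animals, so p-values measure the spread between pools, and in bulk RNA fewer cells of a type and less RNA per cell cannot be told apart. Genes with near-identical copies, opposite-strand transcripts and pseudogenes are uncertain because the sources used here do not say how shared reads and strand were counted.

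As background, a dividing progenitor needs amino acids, nucleobases, phosphate and copper for new protein, nucleic acid and respiratory chains, while a granulocyte leaves the cycle and relies largely on glucose uptake and glycolysis, with lactate leaving through monocarboxylate carriers. CD98 is a surface dimer in which the heavy chain Slc3a2 brings amino acid exchangers of family 7 to the membrane. Basophils make histamine, and the organic cation carrier Slc22a3 moves histamine, serotonin and other monoamines.

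Library totals ran from 3596108 to 8151030 counts, and a count of 0 in a library allowed up to 0.290 to 0.955 CPM, counting error only. CPM here are counts scaled to a common library total, with library sizes corrected by the trimmed mean of M values. The sorted cells carried the basophil markers in all libraries, at a summed level of 25556 to 71614 CPM over 10 genes in BaPs and pre-basophils and of 7372 to 16238 CPM in mature basophils. Prss34 alone had 17009 to 49584 CPM in the former and 883 to 5708 CPM in the latter. Itga2 ran the other way, with 32.5 to 97.6 and 124 to 201 CPM. Of the 10 markers, 5 were called higher, 1 lower and 4 neither in pre-basophils against BM mature basophils. BaP replicate 3 stood apart. Its summed erythroid markers reached 2422 CPM against 14.6 and 15.3 CPM in BaP replicates 1 and 2, and its basophil markers were the lowest of the BaPs (25556 CPM). Results that rest on this library are given with and without it.

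The 181 members together took 0.502% ± 0.0197 (SD, n = 3) of the counts of a BaP library and 0.464% ± 0.0146 of a pre-basophil library. They took 0.443% ± 0.0143 of a BM mature library and 0.465% ± 0.0124 of a spleen library. Of the 177 members that passed the count filter, 110 (62.1%) differed among the 4 groups at an adjusted p under 0.05, where 57.8% of all 15083 genes did. Slc6a18, Slc12a9, Slc41a1 and Slc19a2 did not pass that filter. Group means rose from BaPs over pre-basophils to BM mature basophils in 48 members (27.1%, all genes 29.5%) and fell in that order in 54 (30.5%, all genes 31%). The members as a body therefore moved at about the rate of all genes, and the account below is of which carriers moved and in which class.

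Per kilobase of transcript, the mean level over the 4 groups was highest for Slc25a5, the mitochondrial ADP/ATP exchanger, at 115.9 CPM per kb. The lengths are those of all annotated exons merged, and it was not tested whether counts grow with length in these libraries. By counts summed over the 12 libraries and not divided by length, Slc2a3 (25222) lay above Slc25a5 (12016). Next came the adaptor Slc9a3r1 at 76.9 CPM per kb, the CD98 heavy chain Slc3a2 at 57.2, the glucose carrier Slc2a3 at 54.8, the mitochondrial carriers Slc25a11 and Slc25a3 at 51.7 and 50.8, the magnesium carrier Slc41a3 at 43.3 and the amino acid exchanger Slc7a8 at 42.6 CPM per kb. Slc50a1, a sugar carrier, had 41.2 CPM per kb and Slc48a1, a lysosomal haem carrier, 38.7. In their classes Slc16a6 led the organic anion and cation carriers at 15.6 CPM per kb, Slc24a3 the inorganic ion carriers at 12.9, Slc35a4 the nucleotide sugar carriers at 6.85 and Slc29a1 the nucleoside carriers at 2.83.

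The change within the marrow was read from pre-basophils against the BM mature group. Of the 177 members tested, 48 were called, 26 higher in pre-basophils (14.7%, all genes 16.3%) and 22 lower (12.4%, all genes 11.0%). The median log2 fold change was 0.03 over the members and -0.00 over all genes. By class the counts were 1 higher and 4 lower of 13 sugar carriers, 7 higher and 4 lower of 31 amino acid and peptide carriers, 4 and 4 of 24 organic anion and cation carriers, 4 and 3 of 25 metal carriers, 3 and 3 of 19 inorganic ion carriers, and 2 and 3 of 35 mitochondrial carriers. The nucleoside carriers had 1 higher of 4, the nucleotide sugar carriers 1 higher of 5, the fatty acid and urea carriers 2 higher of 4 and the vitamin, choline and haem carriers 1 higher and 1 lower of 9, and the 8 non-carriers had a median log2 fold change of 0.05. Classes follow the family number and not the substrate of each member. The amino acid class thus counts the serotonin carrier Slc6a4 as lower and the nucleobase carrier Slc43a3 as higher. The sugar class counts Slc5a3 and Slc5a6, neither of which was called. With library size alone as the scaling, the median of all genes moved to 0.22 and the members split into 44 higher and 13 lower, and with upper quartile scaling into 23 and 29. The members called numbered 27 without pre-basophil replicate 1, 62 without BaP replicate 3 and 33 to 49 without any other library. Over all genes the calls numbered 4112 in the reported fit and 2831, 5251 and 3052 to 4166 in these fits. BaP replicate 3 is in neither group of this comparison. Without it, 32 of 173 tested members were higher and 30 lower (all genes 19.8% and 15.8%), and all 48 reported calls held. In that edgeR fit Slc7a5, Slc25a5 and Slc48a1, for example, had adjusted p 0.000623, 0.000653 and 0.000598. All 12 markers of the neutrophil list were also called higher in pre-basophils (summed level 2499 to 3591 CPM against 169 to 269 CPM, each above 0 in all pre-basophil libraries, with Chil3 and Mmp8 at 0 in 1 BM mature library each), and their part in these results was not tested. Ctsg had 1480, 1191 and 1211 CPM and Ngp 62.9, 141 and 367 CPM in pre-basophil replicates 1 to 3. In the BaP libraries Ctsg had 2489, 2135 and 767 CPM. The 12 erythroid markers had a summed level of 46.1 to 59.4 CPM in pre-basophils and 190 to 209 CPM in BM mature libraries (Epor and Car1 at 0). Of the 7 tested, 0 were called, and their part was not tested either.

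**Figure D1:**
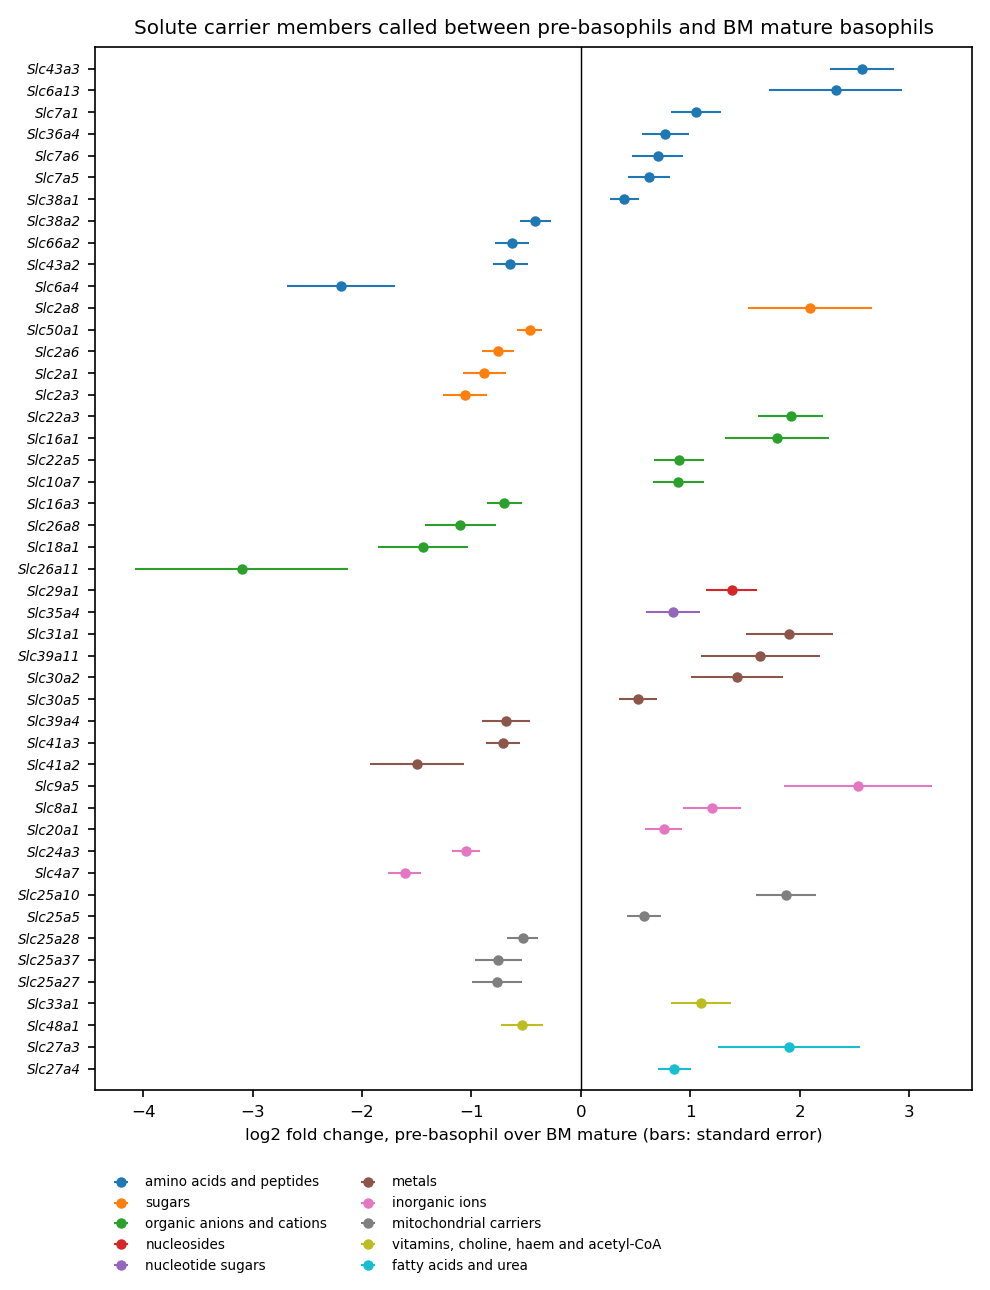
Log2 fold change of pre-basophil against BM mature basophil (x axis, points with bars of ±1 SE from the edgeR model) for 47 of the 48 called members, grouped by carrier class on the y axis. Points right of 0 are the 26 members higher in pre-basophils, led by Slc43a3 at 2.57, and points left of 0 are 21 of the 22 lower members, with Slc26a11 at -3.10 and Slc6a4 at -2.19 the farthest out.

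Of the 13 sugar carriers, 4 were lower (30.8%, all genes 11.0%) and 1 was higher (7.69%, all genes 16.3%) in pre-basophils than in BM mature basophils, and 8 did not pass the test. Slc2a3 (ENSMUSG00000003153.10, GRCm38 chromosome 6, 122727809 to 122801640, minus strand), the high-affinity glucose carrier known as GLUT3, had 168, 166 and 151 CPM in the BaP libraries and 290.1, 269 and 339 CPM in the pre-basophil libraries. The Slc2a3 level was 721, 424 and 726 CPM in the BM mature libraries and 528, 385 and 599 CPM in the spleen libraries. The 3 BaP libraries lay lowest and the 6 mature libraries highest, with BM and spleen overlapping. In pre-basophils relative to BM mature basophils it had a log2 fold change of -1.06 ± 0.20 (SE, adjusted p 0.00148), a 2.08-fold lower level. Slc2a1 (ENSMUSG00000028645.11, GRCm38 chromosome 4, 119108711 to 119137983, plus strand), the GLUT1 carrier of basal glucose uptake, had 12.2, 12.5 and 18.9 CPM in the BaP libraries and 14.8, 19.5 and 21.4 CPM in the pre-basophil libraries. The Slc2a1 level was 32.8, 33.1 and 37.6 CPM in the BM mature libraries and 46.6, 63.2 and 49.3 CPM in the spleen libraries. Every mature library exceeded every pre-basophil library and BaPs overlapped with pre-basophils, with a log2 fold change of -0.88 ± 0.20 (SE, adjusted p 0.00439). Slc2a6, a hexose carrier of lysosomes, had 25.3, 33.7 and 22.4 CPM in the BaP libraries and 57, 48.9 and 57.6 CPM in the pre-basophil libraries. The Slc2a6 level was 88.5, 94.6 and 93.8 CPM in the BM mature libraries and 99.7, 111 and 119 CPM in the spleen libraries, so that all 4 groups lay in the order BaP, pre-basophil, BM mature and spleen with no overlap, with a log2 fold change of -0.76 ± 0.15 (SE, adjusted p 0.0016). Slc50a1, a sugar carrier, differed less and had 51.6, 51.2 and 57.3 CPM in the BaP libraries and 51.7, 51.6 and 57.1 CPM in the pre-basophil libraries. The Slc50a1 level was 81.8, 71.4 and 69.5 CPM in the BM mature libraries and 58.9, 58.4 and 64.4 CPM in the spleen libraries. Its BM mature libraries lay above those of the other 3 groups (log2 fold change of -0.47 ± 0.11 (SE, adjusted p 0.00752)), a call that was lost with library size alone as the scaling (-0.25, adjusted p 0.19 in edgeR). The exception was Slc2a8, an intracellular hexose carrier of low level, with a mean of 4.59 ± 1.19 CPM (SD, n = 3) before and 1.02 ± 0.440 CPM after maturation in the marrow (log2 fold change of 2.09 ± 0.57 (SE, adjusted p 0.0139)). That call was lost without replicate 1 of pre-basophils or replicate 1 or 3 of BM mature cells (adjusted p 0.0526 to 0.0592). The direction count of 1 higher and 4 lower was the same under 4 other settings (DESeq2 size factors, upper quartile, repeated trimmed means and the replicate block) and became 1 and 3 with library size alone.

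Of the lactate and pyruvate carriers, Slc16a3 and Slc16a1 moved in opposite directions. Slc16a3 (ENSMUSG00000025161.16, GRCm38 chromosome 11, 120948480 to 120960868, plus strand), the MCT4 carrier through which glycolytic cells release lactate, had 30.3, 34.9 and 24.2 CPM in the BaP libraries and 57.3, 53.1 and 44.8 CPM in the pre-basophil libraries. The Slc16a3 level was 80.2, 93.4 and 77.7 CPM in the BM mature libraries and 66.6, 80.5 and 61.4 CPM in the spleen libraries. The 6 mature libraries overlapped with each other and lay above the 6 BaP and pre-basophil libraries, with a log2 fold change of -0.70 ± 0.16 (SE, adjusted p 0.00485). Slc16a1 (ENSMUSG00000032902.1, GRCm38 chromosome 3, 104638668 to 104658462, plus strand), the MCT1 carrier, had 14.6, 6.37 and 17.5 CPM in the BaP libraries and 12, 6.82 and 5.28 CPM in the pre-basophil libraries. The Slc16a1 level was 1.59, 1.75 and 3.18 CPM in the BM mature libraries and 0.640, 1.32 and 1.59 CPM in the spleen libraries. Each mature library lay below every BaP and pre-basophil library, with a log2 fold change of 1.79 ± 0.47 (SE, adjusted p 0.0124), and this call was lost without pre-basophil replicate 1 (adjusted p 0.0628) or BM mature replicate 2 (0.0525) and in limma-voom (0.0589). Bsg, the chaperone of both carriers, was higher in pre-basophils (0.58 ± 0.15 SE, adjusted p 0.0122 in edgeR). Emb, the Bsg relative embigin, was lower (-1.37 ± 0.11, adjusted p 2.24e-06).

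**Figure D2:**
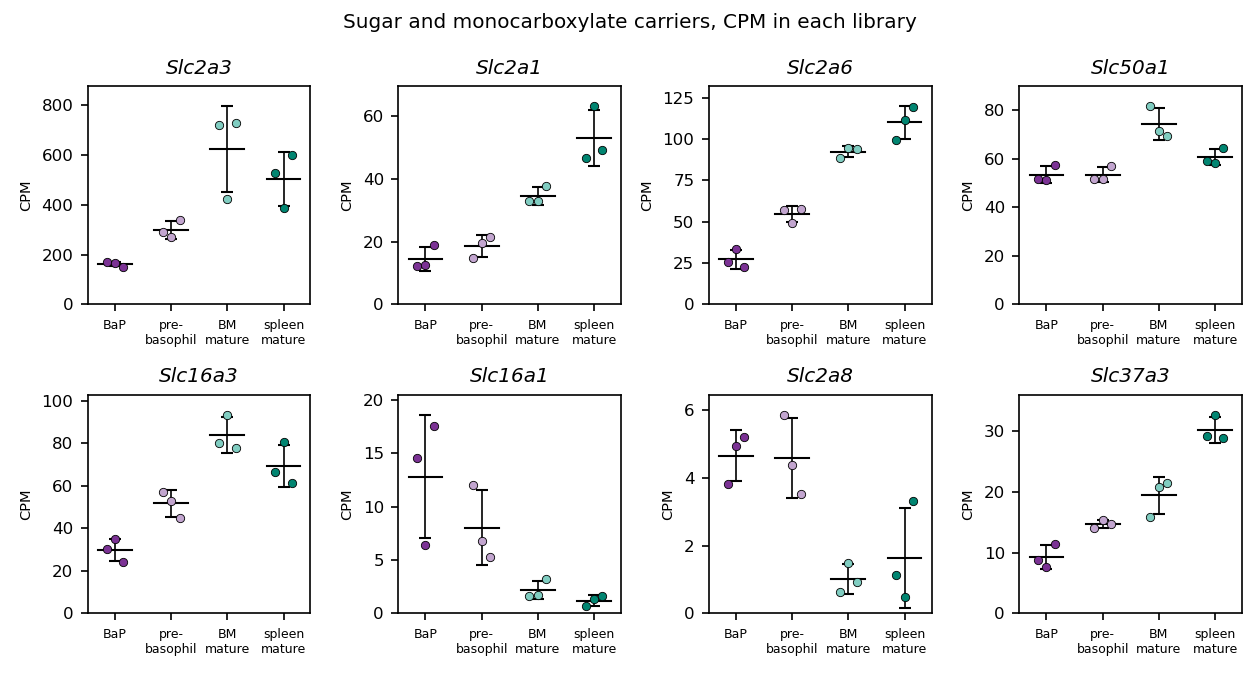
CPM on trimmed-mean-scaled library sizes (y axis, linear from 0) in each of the 12 libraries for 8 sugar and lactate carriers (panels), with points for libraries, horizontal bars for group means and error bars for ±1 SD (n = 3). Slc2a3, Slc2a1, Slc2a6 and Slc16a3 climb from BaPs to BM mature basophils, whereas Slc16a1 and Slc2a8 are at their lowest in the mature groups.

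The bases before the start sites of these genes show how the promoters of carriers that moved in opposite directions read. RefSeq promoters on GRCm38.p6 were matched for 135 of the 181 members, 22 of the 26 higher and 13 of the 22 lower ones, and 250 bases upstream of each start were searched on both strands. The E-box CACGTG stood in 17.8% of the members' promoters (24 of 135), in 6.86% of the promoters of all 27025 genes, in 5 of 22 higher members (22.7%) and in 1 of 13 lower members (7.69%). The shorter ACGTG, the core of the hypoxia response element and part of the E-box, stood in 30.4% of members, 18.5% of all genes, 36.4% of higher and 38.5% of lower members. The letters AGATAA, which match factors of the Gata family, stood in 8.15% of members and 11.4% of all genes, and the amino acid response motif TGATGNAAN in 2.96% and 3.89%. Neither base composition nor expression was matched between these sets. The members had all passed the limit of 100 counts, whereas the set of all genes was taken whether or not a gene had counts. A difference in share is therefore not a trait of carriers shown here, and a match is a description of letters only. The windows shown are those of the opposed lactate carriers, of the glucose carrier Slc2a1, and of a higher and a lower carrier with an E-box, the phosphate importer Slc20a1 and the magnesium carrier Slc41a3. Capitals mark the E-box in Slc16a1, Slc20a1 and Slc41a3 and ACGTG in Slc16a3 and Slc2a1.
Slc16a1: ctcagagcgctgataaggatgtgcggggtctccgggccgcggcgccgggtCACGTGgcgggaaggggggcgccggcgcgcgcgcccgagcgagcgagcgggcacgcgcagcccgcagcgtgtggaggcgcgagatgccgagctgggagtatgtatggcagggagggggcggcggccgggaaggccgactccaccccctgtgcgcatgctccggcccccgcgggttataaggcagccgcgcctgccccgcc
Slc16a3: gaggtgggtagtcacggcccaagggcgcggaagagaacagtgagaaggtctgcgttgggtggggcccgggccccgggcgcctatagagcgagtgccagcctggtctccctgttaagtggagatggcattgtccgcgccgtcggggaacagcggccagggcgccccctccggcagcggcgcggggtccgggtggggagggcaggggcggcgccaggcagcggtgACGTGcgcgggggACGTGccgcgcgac
Slc2a1: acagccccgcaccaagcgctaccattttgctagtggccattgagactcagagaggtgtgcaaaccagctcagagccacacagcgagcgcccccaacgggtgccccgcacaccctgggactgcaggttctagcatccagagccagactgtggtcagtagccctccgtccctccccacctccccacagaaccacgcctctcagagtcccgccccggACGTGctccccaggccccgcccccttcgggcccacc
Slc20a1: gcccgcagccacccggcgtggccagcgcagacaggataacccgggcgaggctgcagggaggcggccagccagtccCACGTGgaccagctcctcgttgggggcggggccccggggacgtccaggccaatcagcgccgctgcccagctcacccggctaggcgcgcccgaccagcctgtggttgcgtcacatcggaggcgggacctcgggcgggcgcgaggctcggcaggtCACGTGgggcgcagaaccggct
Slc41a3: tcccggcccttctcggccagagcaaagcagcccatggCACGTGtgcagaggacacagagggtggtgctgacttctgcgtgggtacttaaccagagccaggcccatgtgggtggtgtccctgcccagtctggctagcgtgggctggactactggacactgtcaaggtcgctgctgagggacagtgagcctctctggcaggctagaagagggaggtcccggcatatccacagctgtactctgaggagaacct
The Slc16a1 window has 1 E-box and lies at chr3:104638414-104638663 on the plus strand. The Slc16a3 window at chr11:120948817-120949066 on the plus strand holds 2 copies of ACGTG near its start site and lies inside the GENCODE gene, upstream of the RefSeq start. The Slc2a1 window at chr4:119108495-119108744 on the plus strand holds 1 copy of ACGTG. The Slc20a1 window at chr2:129198523-129198772 on the plus strand, the first of 2 RefSeq starts, holds 2 E-boxes. The Slc41a3 window at chr6:90618996-90619245 on the plus strand holds 1 E-box and lies inside the GENCODE gene, upstream of the RefSeq start.

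Among the 31 tested amino acid and peptide carriers both directions occurred, with 7 higher (22.6%, all genes 16.3%) and 4 lower (12.9%, all genes 11.0%) in pre-basophils. Slc3a2 (ENSMUSG00000010095.13, GRCm38 chromosome 19, 8706882 to 8723369, minus strand), the heavy chain of CD98, had 208, 192 and 180.2 CPM in the BaP libraries and 233, 215 and 214 CPM in the pre-basophil libraries. The Slc3a2 level was 220.2, 207 and 211 CPM in the BM mature libraries and 173, 194 and 177 CPM in the spleen libraries, and BM mature libraries overlapped with pre-basophils (log2 fold change of 0.05 ± 0.10 (SE, adjusted p 0.738)). Its light chains did not follow 1 pattern. Slc7a5 (ENSMUSG00000040010.10, GRCm38 chromosome 8, 121881150 to 121907694, minus strand), the LAT1 carrier of large neutral amino acids, had 59, 52.3 and 31.7 CPM in the BaP libraries and 61.2, 64.3 and 54.5 CPM in the pre-basophil libraries. The Slc7a5 level was 44.9, 34.3 and 37.8 CPM in the BM mature libraries and 34.7, 31.2 and 31.7 CPM in the spleen libraries. It was higher in all pre-basophil than in all BM mature libraries (log2 fold change of 0.62 ± 0.19 (SE, adjusted p 0.0282)), a call lost without replicate 1 or 2 of pre-basophils or replicate 2 or 3 of BM mature cells (adjusted p 0.0869 to 0.107). Slc7a8, the related exchanger LAT2, had 127, 142 and 74.2 CPM in the BaP libraries and 211, 219 and 201 CPM in the pre-basophil libraries. The Slc7a8 level was 310.0, 274 and 273 CPM in the BM mature libraries and 239, 252 and 234 CPM in the spleen libraries. Its BM mature libraries lay above its pre-basophil libraries and the difference did not pass the test (log2 fold change of -0.44 ± 0.18 (SE, adjusted p 0.0819)). It did so without BaP replicate 3 (-0.44, adjusted p 0.000847). Slc7a11, the cystine exchanger, overlapped between the groups at 8.50 ± 0.175 CPM (SD, n = 3) for pre-basophil and 9.96 ± 1.53 CPM for BM mature libraries (adjusted p 0.555 in edgeR).

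Slc7a1 (ENSMUSG00000041313.14, GRCm38 chromosome 5, 148327410 to 148399904, minus strand), the main carrier of arginine and lysine, had 39.7, 28.3 and 45.2 CPM in the BaP libraries and 28.8, 21.2 and 21 CPM in the pre-basophil libraries. The Slc7a1 level was 12.1, 8.01 and 13.7 CPM in the BM mature libraries and 14.9, 12.2 and 14.7 CPM in the spleen libraries. All BaP and pre-basophil libraries lay above all mature libraries, with a log2 fold change of 1.05 ± 0.23 (SE, adjusted p 0.00397). Slc43a2, the LAT4 carrier, ran the other way with 11.7, 15.8 and 16.9 CPM in the BaP libraries and 18.2, 22.2 and 20.2 CPM in the pre-basophil libraries. The Slc43a2 level was 34.4, 32 and 28.6 CPM in the BM mature libraries and 48.8, 46.2 and 56.4 CPM in the spleen libraries. The groups lay in the order BaP, pre-basophil, BM mature and spleen with no overlap (log2 fold change of -0.65 ± 0.16 (SE, adjusted p 0.00788)), and the call was lost with library size alone (-0.42, adjusted p 0.11 in edgeR). Among the sodium-coupled glutamine carriers, Slc38a1 was higher (log2 fold change of 0.40 ± 0.14 (SE, adjusted p 0.0427)) and Slc38a2 lower (log2 fold change of -0.41 ± 0.15 (SE, adjusted p 0.0488)) in pre-basophils, and both calls were lost in most libraries' absence. That of Slc38a1 was lost without pre-basophil replicate 1 or 2 or without any mature library (0.0527 to 0.176), and that of Slc38a2 without BaP or pre-basophil replicate 1 or 2, BM mature replicate 2 or 3 or any spleen library (0.0504 to 0.174). With the replicate number as a block Slc38a1 had an adjusted p of 0.0512. The Slc38a1 call was further lost with DESeq2 size factors, upper quartile scaling, no count filter, DESeq2 and limma-voom (0.0518 to 0.083). The Slc38a2 call was further lost with library size alone (-0.20, 0.464), no count filter, limma-voom and repeated trimmed means (0.0506 to 0.13). Slc1a5, which carries glutamine and other neutral amino acids, had 68.2 ± 3.86 CPM for pre-basophil and 65.8 ± 1.80 CPM for BM mature libraries (adjusted p 0.772). Slc36a4, a lysosome and plasma membrane carrier of proline and tryptophan, was higher (log2 fold change of 0.77 ± 0.21 (SE, adjusted p 0.0156)), a call lost without pre-basophil replicate 3 (0.0585) or BM mature replicate 3 (0.0723), in DESeq2 (0.0511) and without a count filter (0.0868). The class count of 7 higher and 4 lower became 6 and 6 with DESeq2 size factors and 5 and 8 with upper quartile scaling.

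**Figure D3:**
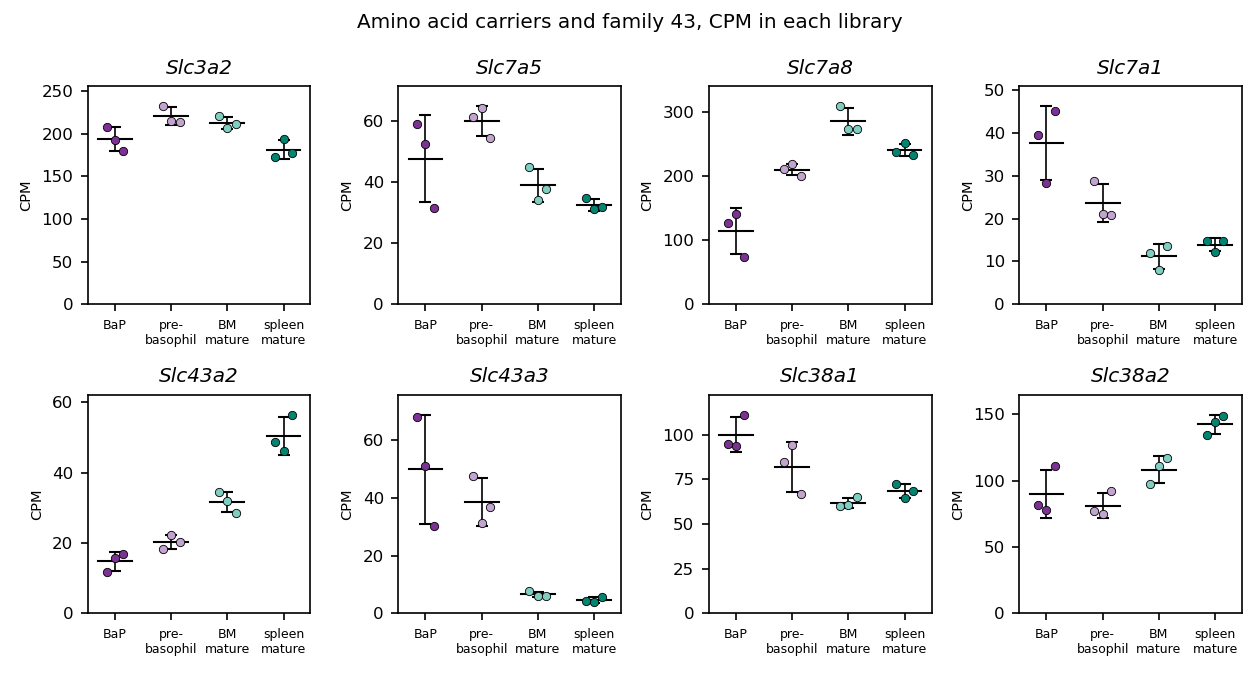
CPM on trimmed-mean-scaled library sizes (y axis, linear from 0) in each of the 12 libraries for 8 members of the amino acid families (panels), with points for libraries, horizontal bars for group means and error bars for ±1 SD (n = 3). Slc43a3 and Slc7a1 are highest in BaPs and pre-basophils, Slc7a8 and Slc43a2 are lowest there, and Slc3a2 stays between 173 and 233 CPM in all libraries.

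The carriers of nucleobases and nucleosides had 2 calls, both higher in pre-basophils. In the nucleoside class 1 of 4 tested members was higher (25%, all genes 16.3%), and the other call was of a member of family 43. Slc43a3 (ENSMUSG00000027074.14, GRCm38 chromosome 2, 84936579 to 84958509, plus strand), a purine nucleobase carrier that the family number places with the amino acid carriers, had 68.1, 51.2 and 30.4 CPM in the BaP libraries and 47.5, 31.4 and 36.8 CPM in the pre-basophil libraries. The Slc43a3 level was 7.64, 6.01 and 5.99 CPM in the BM mature libraries and 4.32, 3.96 and 5.71 CPM in the spleen libraries. No BaP or pre-basophil library overlapped with a mature library, with a log2 fold change of 2.57 ± 0.29 (SE, adjusted p 3.18e-05), a 5.93-fold higher level and the largest rise of the amino acid families. Second in those families was Slc6a13, a carrier of GABA that was named after its values were seen, with 15.8, 13 and 5.81 CPM in the BaP libraries and 3.91, 6.82 and 3.36 CPM in the pre-basophil libraries. The Slc6a13 level was 1.59, 1.0 and 0.374 CPM in the BM mature libraries and 1.44, 0.330 and 0.797 CPM in the spleen libraries (log2 fold change of 2.33 ± 0.61 (SE, adjusted p 0.0117)). That call was lost without pre-basophil replicate 2 or BM mature replicate 3 (adjusted p up to 0.0659) and in limma-voom (0.0558). Slc29a1 (ENSMUSG00000023942.15, GRCm38 chromosome 17, 45585200 to 45599606, minus strand), the equilibrative nucleoside carrier ENT1, had 21, 23.8 and 20.9 CPM in the BaP libraries and 16.2, 12.2 and 15.4 CPM in the pre-basophil libraries. The Slc29a1 level was 4.14, 4.76 and 7.49 CPM in the BM mature libraries and 3.04, 3.8 and 3.59 CPM in the spleen libraries, and the order BaP, pre-basophil, BM mature and spleen was free of overlap (log2 fold change of 1.38 ± 0.23 (SE, adjusted p 0.000627)). The other tested nucleoside carriers did not pass the test, Slc29a3 with adjusted p 0.72 and Slc28a2 with 0.419. Of the 10 tested partner genes of nucleotide salvage, 4 were higher in pre-basophils (40%, all genes 16.3%), namely Tk1, thymidine kinase (2.83 ± 0.29 SE, adjusted p 1.29e-05), the purine enzymes Hprt (1.05 ± 0.21, adjusted p 0.00227) and Pnp (1.11 ± 0.26, adjusted p 0.00679) and Ada, adenosine deaminase (1.95 ± 0.30, adjusted p 0.000343). The kinases Tk2 and Uck1 were lower (-0.75 and -0.59; 20%, all genes 11.0%).

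The monoamine carriers also split. Slc22a3 (ENSMUSG00000023828.3, GRCm38 chromosome 17, 12418960 to 12507704, minus strand), the organic cation carrier OCT3, had 92.4, 89.1 and 38.5 CPM in the BaP libraries and 59.5, 52.1 and 54.9 CPM in the pre-basophil libraries. The Slc22a3 level was 14.6, 17.3 and 12.4 CPM in the BM mature libraries and 5.92, 9.9 and 6.64 CPM in the spleen libraries. All BaP and pre-basophil libraries exceeded all mature libraries, with a log2 fold change of 1.92 ± 0.30 (SE, adjusted p 0.000353). Slc6a4 (ENSMUSG00000020838.12, GRCm38 chromosome 11, 76998603 to 77032340, plus strand), the serotonin reuptake carrier, had 1.19, 3.06 and 15.3 CPM in the BaP libraries and 6.71, 11.9 and 7.52 CPM in the pre-basophil libraries. The Slc6a4 level was 43.9, 38.1 and 37.6 CPM in the BM mature libraries and 53.6, 51.2 and 53.1 CPM in the spleen libraries. The mature libraries lay far above the others and the 3 BaP libraries differed widely, with a log2 fold change of -2.19 ± 0.50 (SE, adjusted p 0.00477). Slc18a1, a vesicular monoamine carrier, had 0.717, 0.707 and 0.775 CPM in the BaP libraries and 2.8, 1.95 and 2.72 CPM in the pre-basophil libraries. The Slc18a1 level was 3.5, 7.76 and 8.8 CPM in the BM mature libraries and 1.28, 1.32 and 3.32 CPM in the spleen libraries. Pre-basophils lay below BM mature basophils (log2 fold change of -1.44 ± 0.41 (SE, adjusted p 0.0189)), a call lost without any of 5 libraries (pre-basophil replicates 1 to 3 and BM mature replicates 2 and 3, adjusted p 0.0505 to 0.098). The carnitine carrier Slc22a5 was higher in pre-basophils (log2 fold change of 0.90 ± 0.23 (SE, adjusted p 0.0103)), with adjusted p 0.0506 without pre-basophil replicate 1 and 0.0532 without a count filter. Slc26a8 and Slc26a11, anion exchangers, were lower (log2 fold change of -1.10 ± 0.32 (SE, adjusted p 0.0212), and for Slc26a11 -3.10 ± 0.97 with adjusted p 0.0295). The first call was lost without replicate 1 of pre-basophils or replicate 1 or 2 of BM mature cells (0.0554 to 0.0888), and the second without any pre-basophil or BM mature library (0.063 to 0.105). Without BaP replicate 3, Slc26a8 had -1.08 ± 0.25 (adjusted p 0.00233) and Slc26a11 -3.08 ± 0.32 (6.41e-07).

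In the metal families, 4 of 25 tested members were higher in pre-basophils (16%, all genes 16.3%) and 3 lower (12%, all genes 11.0%), near the shares of all genes. Slc31a1 (ENSMUSG00000066150.12, GRCm38 chromosome 4, 62360727 to 62391769, plus strand), the CTR1 copper importer, had 12.4, 5.42 and 7.17 CPM in the BaP libraries and 5.31, 4.63 and 7.04 CPM in the pre-basophil libraries. The Slc31a1 level was 0.955, 2.0 and 1.5 CPM in the BM mature libraries and 1.28, 1.16 and 1.59 CPM in the spleen libraries, a low level in which the mature libraries lay below all others (log2 fold change of 1.90 ± 0.40 (SE, adjusted p 0.00293)). Slc41a3 (ENSMUSG00000030089.15, GRCm38 chromosome 6, 90604725 to 90646412, plus strand), a magnesium carrier, had 66.6, 72.4 and 42.4 CPM in the BaP libraries and 114, 119 and 119.6 CPM in the pre-basophil libraries. The Slc41a3 level was 176, 198 and 202 CPM in the BM mature libraries and 131, 137 and 134 CPM in the spleen libraries. Its level stepped up from BaPs to pre-basophils and BM mature basophils and was lower in spleen than in BM, with a log2 fold change of -0.71 ± 0.16 (SE, adjusted p 0.00428). The zinc carriers Slc30a5 and Slc30a2 were higher in pre-basophils (log2 fold change of 0.52 ± 0.17 (SE, adjusted p 0.0345), and for Slc30a2 1.43 ± 0.42 with adjusted p 0.0218). The Slc30a5 call was lost without replicate 1 or 3 of either group (0.0842 to 0.153), with upper quartile scaling (0.0507) and in DESeq2 (0.0602), and the Slc30a2 call without replicate 2 or 3 of either group (0.059 to 0.0805). Of the zinc importer family 39, Slc39a11 was higher (log2 fold change of 1.64 ± 0.54 (SE, adjusted p 0.0372)) and Slc39a4 lower (log2 fold change of -0.69 ± 0.22 (SE, adjusted p 0.0324)), both named after their values were seen. The first call was lost without replicate 1 or 2 of pre-basophils or replicate 2 or 3 of BM mature cells (adjusted p up to 0.141) and in limma-voom (0.0764). The second was lost without any pre-basophil library or replicate 1 or 2 of BM mature cells (up to 0.125), and with library size alone, no count filter or repeated trimmed means (0.066 to 0.193). The other tested zinc carriers did not pass the test (adjusted p 0.0715 to 0.949). Slc39a6 and Slc30a7 did so without BaP replicate 3 (0.46 with 0.0356, and 0.51 with 0.0255). The iron carriers Slc11a2 (0.0702) and Slc40a1 (0.22) did not pass. The 6 tested partner genes of zinc and copper had a median log2 difference of 0.09.

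The mitochondrial carriers were led by the ADP/ATP exchanger Slc25a5 (ENSMUSG00000016319.3, GRCm38 chromosome X, 36795651 to 36798807, plus strand), which had 352, 298 and 226 CPM in the BaP libraries and 234, 211 and 202 CPM in the pre-basophil libraries. The Slc25a5 level was 155, 134 and 143 CPM in the BM mature libraries and 119, 122 and 94 CPM in the spleen libraries. BaP libraries except replicate 3 lay highest and spleen libraries lowest (log2 fold change of 0.58 ± 0.16 (SE, adjusted p 0.0136)), and the call was lost without pre-basophil replicate 1 (0.0735) or BM mature replicate 2 (0.0577). Slc25a10 (ENSMUSG00000025792.9, GRCm38 chromosome 11, 120491840 to 120499187, plus strand), the dicarboxylate carrier, had 14.6, 11.3 and 9.59 CPM in the BaP libraries and 11.2, 11.7 and 11 CPM in the pre-basophil libraries. The Slc25a10 level was 2.55, 2.5 and 3.93 CPM in the BM mature libraries and 2.56, 1.82 and 2.92 CPM in the spleen libraries, with the mature libraries below all others and a log2 fold change of 1.87 ± 0.27 (SE, adjusted p 0.000238). The mitochondrial iron importers Slc25a37 and Slc25a28 were lower in pre-basophils (log2 fold change of -0.75 ± 0.21 (SE, adjusted p 0.0173), and for Slc25a28 -0.53 ± 0.14 with adjusted p 0.0125), calls that were lost without pre-basophil replicate 1 or 2 and without BM mature replicate 1 for Slc25a37 or replicate 3 for Slc25a28 (0.0552 to 0.0709). Both were also lost with library size alone (-0.53 with 0.12, and -0.31 with 0.102), and that of Slc25a28 with repeated trimmed means (0.0537). The phosphate carrier Slc25a3 overlapped between these 2 groups at 282 ± 9.52 and 284 ± 8.22 CPM (SD, n = 3; adjusted p 0.953). With library size alone the 35 tested mitochondrial carriers had 8 calls, all higher, instead of 2 higher (5.71%, all genes 16.3%) and 3 lower (8.57%, all genes 11.0%).

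Among the ion carriers, Slc4a7 (ENSMUSG00000021733.10, GRCm38 chromosome 14, 14702279 to 14799940, plus strand), a sodium bicarbonate cotransporter that raises the pH of the cell, had 13.9, 20.3 and 19.8 CPM in the BaP libraries and 15.7, 16.3 and 18.4 CPM in the pre-basophil libraries. The Slc4a7 level was 48.7, 48.8 and 56.9 CPM in the BM mature libraries and 73.1, 71.4 and 74.6 CPM in the spleen libraries. BaPs and pre-basophils overlapped, BM mature libraries lay higher and spleen libraries highest, with a log2 fold change of -1.61 ± 0.15 (SE, adjusted p 7.38e-06). Slc24a3 (ENSMUSG00000063873.10, GRCm38 chromosome 2, 145167754 to 145642166, plus strand), a potassium-dependent sodium/calcium exchanger, had 21.7, 21.7 and 16.8 CPM in the BaP libraries and 40.8, 48 and 48.6 CPM in the pre-basophil libraries. The Slc24a3 level was 88.5, 94.9 and 102 CPM in the BM mature libraries and 75.4, 78.7 and 72 CPM in the spleen libraries, rising over the 3 marrow groups with no overlap (log2 fold change of -1.05 ± 0.13 (SE, adjusted p 5.71e-05)). The sodium/calcium exchanger Slc8a1, in contrast, had 31.8, 29.2 and 13.8 CPM in the BaP libraries and 24, 26.5 and 23.8 CPM in the pre-basophil libraries. The Slc8a1 level was 11.5, 11.8 and 9.36 CPM in the BM mature libraries and 9.6, 10.2 and 10.4 CPM in the spleen libraries, and its mature libraries lay below all others (log2 fold change of 1.20 ± 0.26 (SE, adjusted p 0.00392)). Slc20a1 (ENSMUSG00000027397.14, GRCm38 chromosome 2, 129198764 to 129211616, plus strand), a phosphate importer, had 92.4, 71.7 and 72.4 CPM in the BaP libraries and 69, 53.1 and 66.2 CPM in the pre-basophil libraries. The Slc20a1 level was 41.1, 28.5 and 41.9 CPM in the BM mature libraries and 35.5, 40.3 and 40.6 CPM in the spleen libraries, with the mature libraries below all BaP and pre-basophil libraries (log2 fold change of 0.76 ± 0.17 (SE, adjusted p 0.00429)). Outside these classes the fatty acid importer Slc27a4 had 21.5, 22.6 and 16.5 CPM in the BaP libraries and 29.9, 32.4 and 29.4 CPM in the pre-basophil libraries. The Slc27a4 level was 17.2, 17.5 and 16.1 CPM in the BM mature libraries and 12, 13.5 and 13.5 CPM in the spleen libraries, with pre-basophils above every other group (log2 fold change of 0.85 ± 0.15 (SE, adjusted p 0.000984)), and the haem carrier Slc48a1 was lower in pre-basophils (log2 fold change of -0.54 ± 0.19 (SE, adjusted p 0.0486)), a call lost without any of 9 libraries, every pre-basophil and mature one (0.0557 to 0.167), with library size alone (-0.32, 0.197), with repeated trimmed means (0.117) and in limma-voom (0.0577). Slc35a4, a nucleotide sugar family member, was higher (log2 fold change of 0.84 ± 0.25 (SE, adjusted p 0.0212)), and its call was lost without any pre-basophil library or BM mature replicate 1 or 3 (0.0509 to 0.0807).

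Partner genes of the pathways that the carriers feed were grouped in lists by function. Over all genes 16.3% were higher and 11.0% lower in pre-basophils than in BM mature basophils. Of 14 tested genes of the ATF4 and amino acid synthesis list, 7 were higher (50%) and 1 lower (7.14%). Psat1 and Phgdh, enzymes of serine synthesis, had log2 fold changes of 3.33 ± 0.32 (SE, adjusted p 9.08e-06) and 2.22 ± 0.29 (adjusted p 0.000101), the mitochondrial one-carbon enzymes Shmt2 and Mthfd2 had 1.92 ± 0.21 (2.38e-05) and 2.70 ± 0.30 (2.71e-05), and the growth inhibitor Ddit4 was lower at -1.72 ± 0.21 (5.1e-05). Atf4 itself had -0.08 ± 0.15 (adjusted p 0.749). The folate and thiamine list had 3 higher and 1 lower of 7 (42.9% and 14.3%), and the iron and haem list 4 higher and 2 lower of 12 (33.3% and 16.7%), among them the transferrin receptor Tfrc at 1.16 ± 0.27 (adjusted p 0.00619) and the ferritin chains Fth1 and Ftl1 at -0.57 ± 0.14 (0.00757) and -0.80 ± 0.12 (0.000363). The hexose entry list had 2 higher (Ldha at 0.52 ± 0.16 and Hif1a at 0.96 ± 0.14) and 2 lower (Hk3 at -0.67 ± 0.15 and Pfkfb3 at -0.61 ± 0.14) of 8, that is 25% in each direction, and the glutathione list had the same counts. The list of carrier chaperones and sodium pump subunits had 2 and 2 of 5. The polyamine and arginine list had 1 and 1 of 6 (16.7% each), near the shares of all genes, and the amino acid sensing list 1 and 1 of 16 (6.25% each), under them.

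Before maturation, the CD34+ BaPs were set against the CD34- pre-basophils. Of the 177 members, 5 were higher in BaPs (2.82%, all genes 2.79%) and 10 lower (5.65%, all genes 4.29%), and the median log2 difference was 0.04 for members and 0.02 over all genes. Slc24a3 (log2 fold change of -1.21 ± 0.14 (SE, adjusted p 0.000274)), Slc2a6 (log2 fold change of -1.02 ± 0.15 (SE, adjusted p 0.00155)), Slc41a3 (log2 fold change of -0.97 ± 0.16 (SE, adjusted p 0.0034)) and Slc26a3, a chloride bicarbonate exchanger (log2 fold change of -1.24 ± 0.23 (SE, adjusted p 0.00687)), were lower in BaPs, and these 4 calls held without any of the 12 libraries. Slc26a3 had 9.79, 13 and 8.13 CPM in the BaP libraries and 21.5, 24.1 and 26.1 CPM in the pre-basophil libraries. The Slc26a3 level was 19.7, 23.3 and 16.3 CPM in the BM mature libraries and 13.6, 16 and 9.3 CPM in the spleen libraries, so that BaPs overlapped with spleen and pre-basophils with BM mature basophils. Slc7a8 (log2 fold change of -0.89 ± 0.18 (SE, adjusted p 0.0109)), Slc16a3 (log2 fold change of -0.80 ± 0.16 (SE, adjusted p 0.0108)) and Slc2a3 (log2 fold change of -0.89 ± 0.20 (SE, adjusted p 0.0188)) were lower too. The Slc7a8 call was lost without pre-basophil replicate 2 (0.0507), the Slc16a3 call without pre-basophil replicate 1 (0.0607) and the Slc2a3 call without pre-basophil replicate 1 (0.0572) or 3 (0.0891). Also lower were Slc27a4 (-0.61 ± 0.15, adjusted p 0.0263) and the choline carrier Slc44a2 (-0.50 ± 0.13, 0.0323), with adjusted p 0.0556 to 0.12 in the leave-one-out fits that lost these calls. The first was lost without BaP replicate 3 or any pre-basophil library, and the second without BaP replicate 1 or 2 or any pre-basophil library. Both were lost with library size alone (-0.42 with 0.0792, and -0.28 with 0.263).

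Higher in BaPs were the ADP/ATP exchanger Slc25a4 (log2 fold change of 1.86 ± 0.43 (SE, adjusted p 0.0213)), the mitochondrial iron importer Slc25a37 (log2 fold change of 0.90 ± 0.21 (SE, adjusted p 0.0207)), the sugar family member Slc45a3 (log2 fold change of 2.29 ± 0.54 (SE, adjusted p 0.0237)), the nucleoside carrier Slc28a2 (log2 fold change of 1.91 ± 0.53 (SE, adjusted p 0.0441)) and the urea carrier Slc14a1 (log2 fold change of 4.15 ± 1.15 (SE, adjusted p 0.0442)). All 5 calls were lost without any pre-basophil library (adjusted p 0.0591 to 0.156), Slc45a3 also without BaP replicate 2 (0.0703), Slc14a1 without any mature library (0.055 to 0.063) and Slc28a2 without any mature library except spleen mature replicate 3 (0.0591 to 0.0654), and Slc28a2 had adjusted p 0.0555 with the replicate block. In limma-voom the calls of Slc45a3, Slc28a2 and Slc14a1 were lost (0.0771, 0.0902 and 0.297). Slc25a4 had 19.8, 13.9 and 45.7 CPM in the BaP libraries and 8.11, 9.25 and 5.28 CPM in the pre-basophil libraries. The Slc25a4 level was 1.91, 3.26 and 6.93 CPM in the BM mature libraries and 2.72, 2.81 and 3.59 CPM in the spleen libraries, and without BaP replicate 3 its fold change fell to 1.20 (0.0242). Slc28a2 had 17.0 CPM in BaP replicate 3 against 5.97 and 3.54 CPM in replicates 1 and 2, and 0.96 (0.171) without it. Slc14a1 also rested on this library (1.14, adjusted p 0.388 without it). Slc25a37 had 18.2, 25.2 and 33.8 CPM in the BaP libraries and 13.4, 12.9 and 15.4 CPM in the pre-basophil libraries. The Slc25a37 level was 25.8, 23 and 22.1 CPM in the BM mature libraries and 20.2, 26.6 and 26 CPM in the spleen libraries, lowest in pre-basophils. The members called numbered 25 without BaP replicate 3 (12 higher, 13 lower) and 5, 6 and 6 without pre-basophil replicate 1, 2 and 3. Over all genes the calls numbered 1068 in the reported fit and 1831, 471, 390 and 382 in these fits. Library size alone split the calls into 17 higher and 7 lower, the rebuilt repeated trimmed means into 11 and 13 and the table without a count filter into 17 and 11. In the partner lists 3 of 14 amino acid synthesis genes were higher in BaPs (21.4%, all genes 2.79%) and 1 lower (7.14%, all genes 4.29%), and the sodium pump subunit Atp1b1 was lower in BaPs (-1.01 ± 0.13, adjusted p 0.000517) and Shmt2 higher (0.96 ± 0.18, adjusted p 0.00713). The glutathione list had 0 higher and 3 lower of 8 (37.5%) and the hexose entry list 0 and 2 of 8 (25%). Each other partner list had at most 1 call in either direction.

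BaP replicate 3 differed from the other BaP libraries in many members. At least 2-fold above both other BaP libraries and at 5 CPM or more were 10 members (5.65%, all genes 5.11%), and at least 2-fold below both were 8 (4.52%, all genes 1.43%), where each other library had 0 to 2 of either kind in its group. The high members were Slc26a11, Slc14a1, Slc44a1, Slc12a7, Slc25a24, Slc6a4, Slc9a7, Slc28a2, Slc39a2 and Slc25a4, and the low ones included the monoamine carrier Slc22a3, the exchanger Slc8a1 and the zinc carrier Slc30a2. Slc26a11 had 0.239, 0 and 15.1 CPM in the BaP libraries and 0.280, 2.19 and 2.24 CPM in the pre-basophil libraries. The Slc26a11 level was 15, 13.8 and 15 CPM in the BM mature libraries and 20, 22.6 and 20.3 CPM in the spleen libraries, so that BaP replicate 3 was at the level of the mature libraries and the other BaP libraries near the floor. Its log2 fold change of BaP against pre-basophil was 1.85 ± 1.0 (adjusted p 0.294) with that library and -3.58 (adjusted p 0.0191) without it. For Slc6a4 the values were -0.19 (0.886) and -2.0 (0.00094). In this library the summed markers of T and NK cells were 1070 CPM against 343 and 447 CPM, those of B cells 181 against 34.9 and 35.6 CPM, and those of macrophages and monocytes 225 against 26.4 and 28.4 CPM, and their part in these results was not tested. Single genes weighed heavily in these sums. In BaP replicates 1 to 3, Nkg7 had 428, 326 and 485 CPM and Cd3e 0, 0.236 and 31.2 CPM. Ighm had 3.58, 4.01 and 127 CPM and Ly6c2 3.82, 4.95 and 178 CPM. Adgre1, Csf1r, C1qb and Vcam1 had 6.97 to 11.8 CPM in replicate 3, above both other BaP libraries. C1qa and Cd68 lay between the other 2 there. Without it, 5.97% of all genes were higher and 6.47% lower in BaPs, and the members gained included Slc25a5 (0.60, adjusted p 0.00424), Slc22a3 (0.72, 0.00493), the mitochondrial citrate carrier Slc25a1 (0.74, 0.00627), Slc43a3 (0.64, 0.0274) and, lower, Slc37a3 (-0.83, 0.0134).

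**Figure D4:**
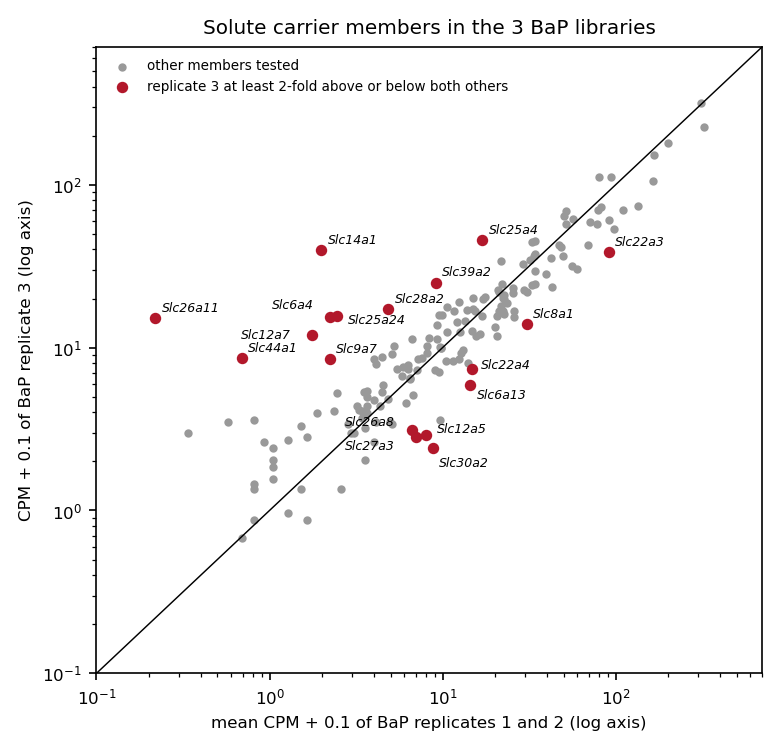
CPM of each tested member in BaP replicate 3 (y axis) against the mean of BaP replicates 1 and 2 (x axis), both on log scales, with the 10 members at least 2-fold above and the 8 at least 2-fold below both other libraries labelled. Most members lie along the diagonal, Slc26a11 and Slc14a1 lie farthest above it, and Slc30a2 lies farthest below it.

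Between tissues, mature basophils of the spleen were set against those of the marrow. Of the 177 members, 6 were higher in spleen (3.39%, all genes 3.16%) and 4 lower (2.26%, all genes 4.67%), and the median log2 difference was -0.02 for members and 0.01 over all genes. Each of these 10 calls was lost without at least 1 library. Slc45a4 (ENSMUSG00000079020.9, GRCm38 chromosome 15, 73577424 to 73645762, minus strand), a sugar family member, had 6.21, 5.42 and 7.46 CPM in the BaP libraries and 4.75, 5.36 and 5.12 CPM in the pre-basophil libraries. The Slc45a4 level was 3.82, 5.26 and 6.55 CPM in the BM mature libraries and 10.4, 11.9 and 14.6 CPM in the spleen libraries. All 3 spleen libraries lay above every other library (log2 fold change of 1.21 ± 0.24 (SE, adjusted p 0.0118)), and the call was lost without BM mature replicate 1 (0.0595) or spleen mature replicate 3 (0.0631). Slc43a2 rose further in spleen (log2 fold change of 0.68 ± 0.15 (SE, adjusted p 0.018), lost without any BM mature library or spleen mature replicate 3, 0.0553 to 0.0843), as did Slc4a7 (log2 fold change of 0.50 ± 0.14 (SE, adjusted p 0.0411)). Slc37a3, a sugar phosphate family member, had 8.84, 7.54 and 11.4 CPM in the BaP libraries and 14, 15.3 and 14.7 CPM in the pre-basophil libraries. The Slc37a3 level was 15.9, 20.8 and 21.5 CPM in the BM mature libraries and 29.1, 32.7 and 28.8 CPM in the spleen libraries, the highest 3 values being those of spleen (log2 fold change of 0.63 ± 0.17 (SE, adjusted p 0.0389)). Slc1a5 was also higher in spleen, with 85.8, 71.4 and 69.7 CPM in the BaP libraries and 63.7, 70.1 and 70.7 CPM in the pre-basophil libraries. The Slc1a5 level was 67.8, 64.3 and 65.1 CPM in the BM mature libraries and 84.3, 87.1 and 96.4 CPM in the spleen libraries (log2 fold change of 0.44 ± 0.12 (SE, adjusted p 0.0345)). Its spleen libraries overlapped with BaP replicate 1 and lay above those of BM. The opposite-strand row Slc36a3os was higher (1.25 ± 0.34, adjusted p 0.0408).

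Lower in spleen were the vesicular monoamine carrier Slc18a1 (log2 fold change of -1.75 ± 0.40 (SE, adjusted p 0.0219)), which was lost without BM mature replicate 2 or 3 or spleen mature replicate 1 or 2 (0.0692 to 0.0981), the peroxisomal carrier Slc25a17 (log2 fold change of -0.63 ± 0.16 (SE, adjusted p 0.0313)) and the carnitine acylcarnitine carrier Slc25a20 (log2 fold change of -0.58 ± 0.16 (SE, adjusted p 0.0437)). The remaining named calls of this comparison, those of Slc4a7, Slc37a3, Slc1a5, Slc36a3os, Slc25a17 and Slc25a20, were lost without any BM mature library and without at least 2 spleen libraries (adjusted p 0.0658 to 0.177). The calls of Slc4a7, Slc37a3, Slc36a3os and Slc25a20 were also lost without any pre-basophil library, that of Slc1a5 without pre-basophil replicate 1 or 2 and that of Slc25a20 without BaP replicate 2 (0.054 to 0.068). Without a count filter the calls of Slc1a5, Slc25a17 and Slc25a20 were lost (0.0599, 0.063 and 0.091). Library size alone lost those of Slc25a17 and Slc25a20 (0.0953 and 0.0951). Repeated trimmed means lost that of Slc1a5 (0.0938) and DESeq2 that of Slc25a20 (0.0506). Slc2a1 (0.62 ± 0.18, adjusted p 0.0576) and Slc41a3 (-0.52 ± 0.16, 0.0566) had no overlap between the tissues and did not pass the test, but did so without BaP replicate 3 (0.61 with 0.00767, and -0.52 with 0.000687), as did Slc22a3 (-0.97, 0.00185). The members called numbered 31 without BaP replicate 3 (14 higher and 17 lower, where 7.99% and 10% of all genes were called), 4, 4 and 5 without pre-basophil replicates 1 to 3, 1 without any BM mature library, and 6, 4 and 1 without spleen mature replicates 1 to 3. Over all genes 1181 were called in the reported fit and 847, 822 and 875 without pre-basophil replicates 1 to 3. Without BM mature replicates 1 to 3 they numbered 249, 459 and 448, and without spleen mature replicates 1 to 3 757, 543 and 241. The hexose entry list had 1 higher and 2 lower of 8 in spleen (12.5%, all genes 3.16%, and 25%, all genes 4.67%). The arrestin Txnip, which lowers glucose uptake, was higher in spleen (1.47 ± 0.18, adjusted p 0.00108) and the lactate dehydrogenase chain Ldha lower (-0.79 ± 0.16, adjusted p 0.0121). The B cell markers had a summed level of 191 to 339 CPM in spleen against 36.6 to 53.4 CPM in BM mature libraries, with 5 of 7 called higher and 0 at 0, and their part in these results was not tested.

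Summed over classes, the share of all counts moved most in percentage points for the sugar and the mitochondrial carriers. The 13 sugar carriers took 0.0369% ± 0.00340 (SD, n = 3) of the counts of a BaP library and 0.0488% ± 0.00345 of a pre-basophil library. They took 0.0762% ± 0.0110 of a BM mature library and 0.0767% ± 0.00911 of a spleen library. Slc2a3 holds most of these counts. The 35 mitochondrial carriers took 0.146% ± 0.00591, 0.114% ± 0.00411, 0.0917% ± 0.00518 and 0.0874% ± 0.00544 in the same order. Slc25a3 and Slc25a5 had the most counts of this class (18262 and 12016 over the 12 libraries). On the trimmed-mean scale the 35 had a median log2 fold change of 0.03 between pre-basophils and BM mature basophils, with 2 called higher and 3 lower. The 32 amino acid and peptide carriers lay between 0.105% and 0.127% in every library. Relative to their level, smaller classes moved more. The 4 nucleoside carriers took 0.00564% ± 0.00150 of a BaP library and 0.00206% ± 9.01e-05 of a BM mature library, with BaP replicate 3 at 0.00737% against 0.00475% and 0.00480% in the other BaP libraries. These shares describe the members by class and were not tested. They, and those of the 181 members together, are of library totals without the trimmed-mean correction. Its factors ran from 1.09 to 1.30 in BaP and 0.999 to 1.06 in pre-basophil libraries. They ran from 0.844 to 0.935 in BM mature and 0.929 to 0.990 in spleen libraries.

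**Figure D5:**
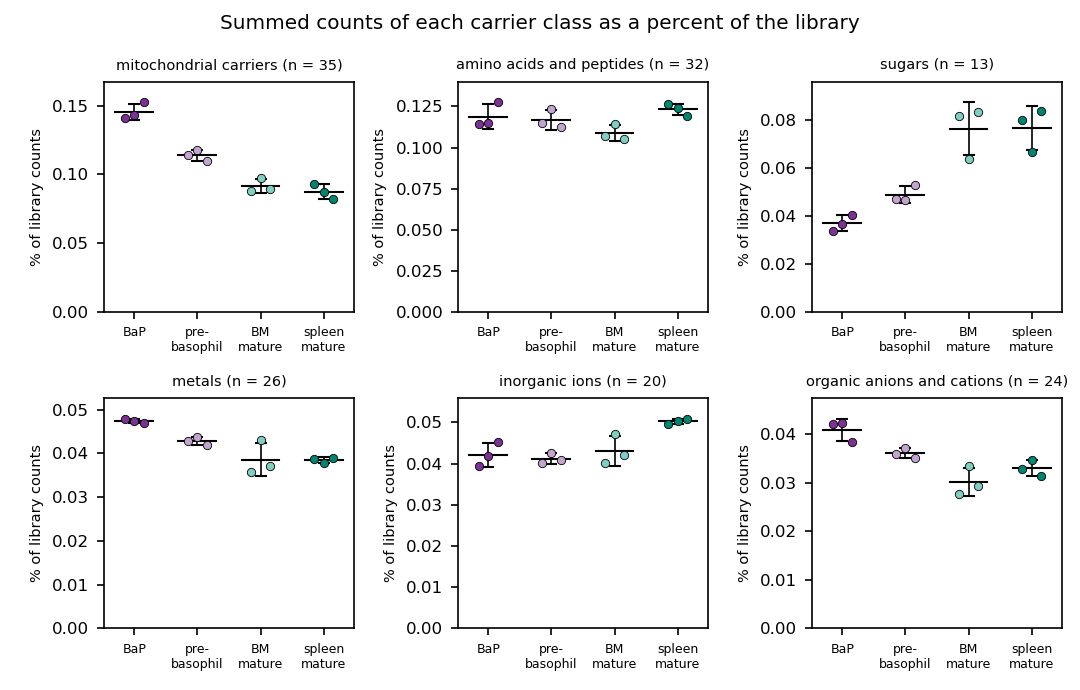
Percent of all counts of a library taken by the members of each of 6 carrier classes (panels, y axis linear from 0) in the 4 groups, with points for libraries, horizontal bars for means and error bars for ±1 SD (n = 3). The sugar carriers climb from 0.0369% to 0.0767% and the mitochondrial carriers fall from 0.146% to 0.0874% from BaPs to spleen mature basophils. The library totals are not corrected by trimmed means.

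Some well-known carriers were too low for the count limit in these cells. Summed over the 12 libraries, the neutral amino acid carriers Slc1a4, Slc7a7 and Slc43a1 had 12, 41 and 77 counts, the peptide carrier Slc15a3 73, the phagosomal metal carrier Slc11a1 82, the sodium potassium chloride cotransporter Slc12a2 88, the glucose phosphate family member Slc37a2 46, the folate carrier Slc46a1 34 and the red cell anion exchanger Slc4a1 45. Slc35b1, Slc35c2 and Slc35d1 had 1531, 3879 and 1444 counts and were not members because their symbols use another letter.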

How the data were processed

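Raw read counts per gene were deposited as 1 table without normalization. The authors captured polyadenylated RNA of sorted cells on beads, amplified it by the TAS-Seq workflow, trimmed reads with Cutadapt 3.4 and mapped them with Bowtie2 2.4.2 to reference transcripts. The study's methods name GRCm38 and the submitters' processing notes GRCm39. Molecular identifiers are not mentioned, so PCR copies count as reads. Coordinates and transcript lengths are from GENCODE M21 on GRCm38 (179 of 181 members matched).

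All 12 libraries were fitted with edgeR 4.0.16 in R 4.3.3 (filterByExpr, trimmed mean of M values, quasi-likelihood F test, 1 coefficient per group). The p-values were adjusted by Benjamini and Hochberg over 15083 genes with a threshold of 0.05, and SE is the model's. The study's package TCC was not used here. Its repeated trimmed means with a likelihood ratio test were rebuilt, and DESeq2 1.42.0, limma-voom (limma 3.58.1), 3 other scalings, no filter, and leaving out each library served as alternatives.

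Members, classes and partner lists were chosen with earlier results of these data known. Named were carriers from a fixed list, the 6 members highest and the 6 lowest in fold change in a comparison (called, at least 5 CPM, no overlap), the 2 most abundant per kilobase in a class, and the 3 on each side of the count limit. Libraries of the same group differed by more than sampling noise (chi-square per degree of freedom 4.16 to 35.0). Replicate numbers in the labels were checked by correlating deviations from group means. Every pair was over 0.1 for pre-basophil and BM mature (0.138 to 0.223) and for BaP and pre-basophil (0.125 to 0.262) libraries, so a block by number was run as an alternative. Pairs of unlike number were not correlated, and replicate 3 had the highest library total in each group. Whether libraries of equal number came from the same animals was therefore not shown. The values reported are those of the fit without a block. Blocked values are given where a call of a carrier described above was lost, and calls gained with the block enter only the counts below. The values of 2 members are not reported here, although they stay in the counts of members.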

Additional observations from a re-analysis of the deposited data

How the results depend on the processing

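The members that differed among the 4 groups numbered 110 in the reported fit, 101 to 113 under other scalings, filters and tests, and 93 to 120 without 1 library. Pre-basophil against BM mature gave 48 calls, 41 to 57 under the other settings and 27 to 62 without 1 library. BaP against pre-basophil gave 15 calls, 24 with library size alone, 28 without a count filter, 24 with repeated trimmed means, 14 to 19 under the others and 5 to 25 without 1 library. Spleen against BM mature gave 10 calls, 17 without a count filter, 9 to 15 under the others and 1 to 31 without 1 library. The calls over all genes moved too. Among the 4 groups they numbered 8714 in the reported fit and 7587 to 9690 without 1 library. Pre-basophil against BM mature gave 4112 and 2831 to 5251, BaP against pre-basophil 1068 and 382 to 1831, and spleen against BM mature 1181 and 241 to 2653. Of the named calls, 18 of 38, 4 of 15 and 0 of 9 held in every alternative of the 3 comparisons in that order. Slc26a11 reversed in BaP against pre-basophil, where leaving out 1 library gave -3.58 (BaP replicate 3) to 2.34. Counting only symbols that end after the number gave 105, 48, 15 and 8 calls, and a limit of 200 counts gave 94, 44, 14 and 9. With the replicate number as a block, 113, 53, 19 and 15 members were called, and 46 of 48, 14 of 15 and 10 of 10 of the pairwise calls held. Spleen and BM mature libraries of the same number did not deviate together (correlations 0.0206, 0.0076 and 0.0254), so they share only a number. Causes of these shifts were not tested. Depth limits members near 1 CPM, where a count of 0 allows up to 0.955 CPM.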
